A study of Mus musculus with 31 samples.

Results

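Neuromedin U (NmU) was compared with phosphate-buffered saline (PBS) after 6 h in D10.G4.1 cells, a long-term mouse T helper clone that makes the cytokines of Th2 cells. The comparison took 8 of the 31 arrays of the series, 4 of cells given NmU for 6 h and 4 of cells given PBS for 6 h, and each array carried total RNA of 1 sample. Every sample is the same clone, and by label the groups differ only in the agent and hold no other genotype or cell type. Differences in handling that the labels do not name cannot be told apart from the agent. The labels give neither the dose of NmU nor the culture medium, nor whether replicates were separate cultures, so the p-values rest on variation among the deposited samples and that variation may be technical. Other arrays of the series sampled both treatments at 0.8, 3 and 12 h, with 4 arrays a group except NmU at 3 h, which had 3. Signals are the deposited linear intensities of probe sets, and no unit other than array signal attaches to them. Each is a set of short probes, and most were matched to 1 gene symbol, but 396 of 12422 were matched to several.

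Neuromedin U is a neuropeptide of gut and nervous tissue whose receptors, Nmur1 and Nmur2, couple to G proteins. Nmur1 is found on immune cells including Th2-type lymphocytes, and its signal runs through phospholipase C, calcium and protein kinase C. Th2 cells are known for Il4, Il5 and Il13, which direct IgE production, the growth of eosinophils and the secretion of mucus. Cholesterol is made from acetyl units through mevalonate, squalene and lanosterol, and the genes of its enzymes are activated together by the SREBP factors when membrane sterol falls, with the factor NF-Y bound beside them at a CCAAT box.

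A probe set was compared if its mean log2 signal was above a signal of 20.2 in either 6 h group, after signals under 5.8 were raised to 5.8. This left 7532 of 12422 probe sets, or 5644 named genes with 1 probe set each. 1 array stood apart. The array of NmU 6 h replicate 4 held transcripts that were otherwise high at 0.8 h. Of the 32 probe sets at least 2-fold higher with NmU at 0.8 h, it was above each of the other 3 NmU 6 h arrays in 25 (78.1%), against 32.2% of all probe sets compared. Its median signal was 41.8, and those of the other 6 h arrays lay between 35.6 and 38.7. Its values correlated with the other NmU 6 h arrays at 0.967 to 0.974 and with the PBS 6 h arrays at 0.968 to 0.971, where the points are probe sets and not independent. The model was therefore fitted with this array and without it, and a change was kept only where it was called in the same direction in both fits (Benjamini-Hochberg adjusted p under 0.05, limma).

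With 4 against 4 arrays, 236 probe sets (3.13%) were higher with NmU and 166 (2.20%) were lower. Without NmU 6 h replicate 4, 235 (3.12%) were higher and 197 (2.62%) were lower. Both fits called 199 higher (2.64%) and 140 lower (1.86%), which came to 152 genes higher (2.69% of genes) and 122 lower (2.16%). Increases were the larger changes. At least 2-fold differences numbered 47 among the higher and 8 among the lower probe sets, and 6 were at least 4-fold higher and 0 at least 4-fold lower. The median log2 fold change was 0.65 among those higher, -0.51 among those lower and 0.02 over all probe sets compared. Of the probe sets called in both fits, 193 of 199 higher and 133 of 140 lower had groups that did not overlap, but so had 519 higher and 430 lower of all 7532, so a lack of overlap is a description and not a test. With only the 8 arrays at 6 h in the fit, 113 were higher and 57 lower in both fits, and 145 of the 339 calls were shared. Single arrays moved these counts too. Without NmU 6 h replicate 1 the counts in both fits were 135 and 73, and without NmU 6 h replicate 3 they were 112 and 75. After scaling of all arrays to 1 common median 107 were higher and 136 lower, so that which direction held more calls turned with the scaling.

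**Figure D1:**
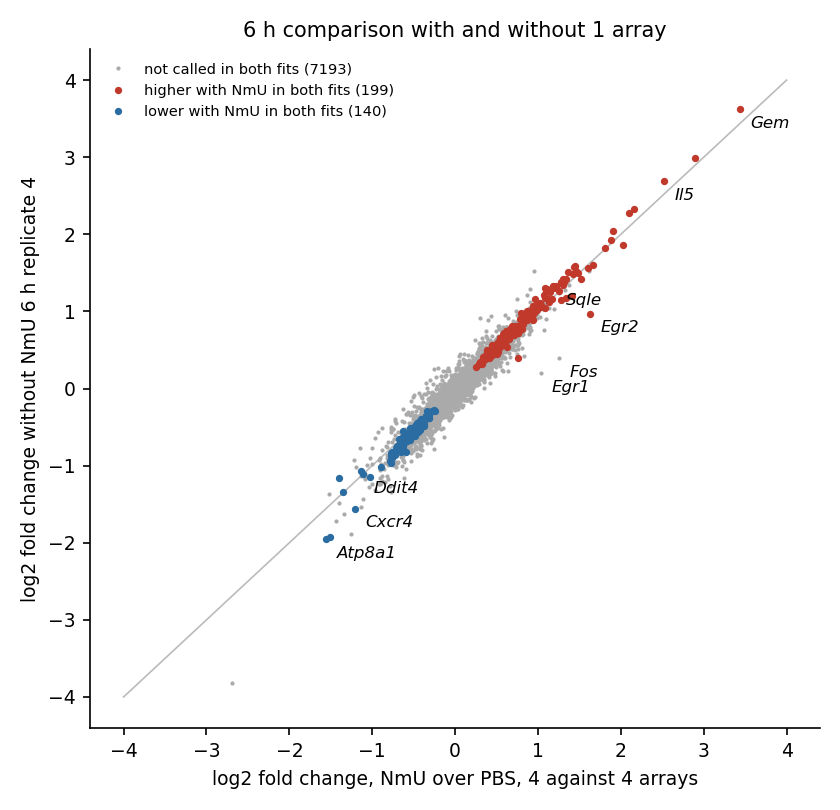
Each point is 1 of 7532 probe sets, with the log2 fold change of NmU over PBS at 6 h from 4 against 4 arrays on the x axis and from the fit without NmU 6 h replicate 4 on the y axis, and the grey line marks equal values. Red points (199) were higher and blue points (140) lower in both fits. Gem and Il5 lie far up the line, while Egr1, Egr2 and Fos lie below it, at a smaller change once that array was left out.

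Il5, Gem, Sqle and Ddit4, which were chosen with earlier results of these data known, are given first and array by array. Arrays are listed here and below in the order of replicates 1 to 4. The eosinophil growth factor Il5 had signals of 63.5, 48.6, 46.9 and 49 on the PBS arrays and 357.6, 293.1, 354.5 and 204.6 on the NmU arrays. Each NmU array was above every PBS array, and the lowest of them was replicate 4. Il5 rose from 52.0 ± 7.72 to 302 ± 71.7 (SD, n = 4 each), or by 2.52 ± 0.24 on the log2 scale (estimate ± SE, adjusted p = 8.32e-08 by limma), and of 2.69 without replicate 4 (adjusted p = 5.94e-08). Gem, a small GTPase that binds calcium channel subunits and is induced by mitogens, had 29.1, 12.1, 16.7 and 17.8 on the PBS arrays and 238.4, 225.1, 204.5 and 132.4 on the NmU arrays. Its groups were far apart, and its log2 fold change was the largest of all probe sets called, at 3.44 ± 0.33 (adjusted p = 8.32e-08 by limma), or 3.63 without replicate 4. Gem passed the signal threshold only through the NmU group, where it was high, so its call and rank are a description and support nothing. Squalene epoxidase Sqle, which makes the first oxygenation of the sterol pathway, had 317.4, 346.6, 361.2 and 313.9 on the PBS arrays and 898.1, 820.8, 801.9 and 610.5 on the NmU arrays. All 4 NmU arrays were above the PBS arrays, with replicate 4 again the lowest, and the log2 fold change was 1.21 ± 0.15 (adjusted p = 8.23e-06). Ddit4, an inhibitor of the growth kinase mTORC1, moved the other way, with 632.4, 581.9, 600.9 and 629.5 on the PBS arrays and 297.3, 254.8, 299 and 283.6 on the NmU arrays. The groups did not overlap, replicate 4 lay among the other NmU arrays, and Ddit4 fell by 1.11 on the log2 scale (SE 0.13, adjusted p = 1.53e-06).

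**Figure D2:**
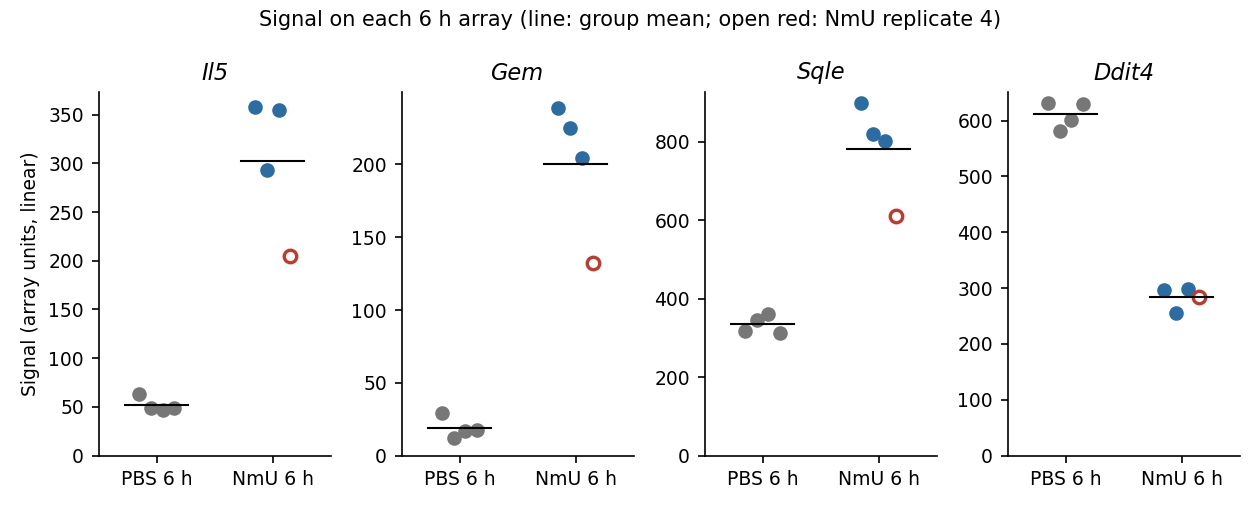
Points are the signals (linear array units) of Il5, Gem, Sqle and Ddit4 on the 4 PBS and the 4 NmU arrays at 6 h, lines are group means, and the open red point is NmU replicate 4. The groups do not overlap for any of the 4 genes, and replicate 4 is the NmU array nearest to PBS for Il5, Gem and Sqle.

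Cytokines of the Th2 type were higher together. Of 7 measured members of the Th2 cytokine list, 6 rose in both fits, 0 fell and 1 was not called. The median log2 fold change was 1.12, against 0.01 over all genes. Both fits called 2.69% of all genes higher and 2.16% lower, and list counts here and below are to be read beside these shares. Il4, which drives Th2 differentiation and IgE switching, had 573.7, 606.8, 545.4 and 513.9 on the PBS arrays and 1917.7, 2401.4, 2080.1 and 1906.4 on the NmU arrays. The lowest NmU array was above 3 times the highest PBS array, and the log2 fold change was 1.89 ± 0.11 (adjusted p = 3.4e-12). Another 2 of its probe sets rose as well (log2 2.89 and 1.61), and a further one did not (0.03, adjusted p = 0.944). Il13, which acts on airway epithelium and mucus, had 1611.5, 1819.1, 1235 and 1473.1 on the PBS arrays and 3511.8, 3882.2, 2884.4 and 3058.2 on the NmU arrays, and Il13 rose by 1.12 ± 0.14 with no overlap of the groups. Il3, a growth factor of mast cells and basophils, had 137.7, 122, 91.4 and 93.3 on the PBS arrays and 422.9, 526.5, 407 and 313.5 on the NmU arrays and rose by 1.91 ± 0.41 (adjusted p = 0.00451). Il6, an inflammatory cytokine, rose from 963 ± 169 to 2031 ± 169.7 (SD, n = 4 each), or by 1.09 ± 0.12 on the log2 scale. Il10, which restrains inflammation, rose from 1605 ± 117 to 2704 ± 177 (SD, n = 4 each), or by 0.75 ± 0.12 on the log2 scale, and replicate 4 was its highest NmU array at 2919.1. Il9, a mast cell growth factor, was not called, at 49.7, 37.1, 28.2 and 30.3 on the PBS arrays and 34.4, 45.3, 41.7 and 49.2 on the NmU arrays, a log2 difference of 0.26 ± 0.28 (adjusted p = 0.679). Csf2 was under the signal threshold in both groups and was not compared. The count of 6 was the same under every alternative tried.

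Chemokines, the secreted attractants of leukocytes, were called higher in 5 of 8 measured cases, with a median log2 fold change of 1.74 over the 8. Ccl4, Cxcl2 and Xcl1 passed the signal threshold only through the NmU group, where they were high, so the count and median are a description and support nothing. Ccl3, which attracts monocytes and eosinophils, had 25.8, 32.8, 34.8 and 25.1 on the PBS arrays and 128.2, 177, 141 and 92.7 on the NmU arrays, and rose by 2.16 ± 0.29 (adjusted p = 2.49e-05). Ccl1, a ligand of the Th2 receptor Ccr8, had 126.4, 117.1, 85.8 and 88.4 on the PBS arrays and 469.9, 596.1, 440.1 and 310.3 on the NmU arrays, and rose by 2.10 ± 0.27 (adjusted p = 1.2e-05). For both genes the 4 NmU arrays were above all PBS arrays, with replicate 4 lowest. Ccl7, a monocyte attractant, had 87.4, 75.6, 68.7 and 78.3 on the PBS arrays and 257.2, 270.6, 316.1 and 440 on the NmU arrays (log2 2.02 ± 0.35), and here replicate 4 was the highest. Ccl4, an attractant of monocytes and T cells, had 27, 23, 9.7 and 10 on the PBS arrays and 60.9, 52.5, 33.8 and 56.8 on the NmU arrays (log2 1.67 ± 0.38, adjusted p = 0.00782). Cxcl2, a neutrophil attractant, was at 5.5 to 9.7 on the PBS arrays, with 1 of them under the floor, and at 25.1 to 27.8 with NmU (log2 1.81 ± 0.25), and the size depends on the floor, being 0.37 with the floor at the 40th percentile. Ccl5, Ccl22 and Xcl1 were not called (log2 0.45 ± 0.28, 0.20 ± 0.20 and 1.06 ± 0.49). Another 12 chemokines on the array were under the signal threshold in both groups and were not compared. With probe sets of a signal under the 60th percentile left out, 3 chemokines rose, since dim ones were no longer tested. The call was lost when a single 6 h array was dropped, for Ccl4 without PBS 3 or 4 or NmU 1 or 2 (adjusted p up to 0.0494). Such arrays are given here and below by group and replicate, and the adjusted p is the highest over all alternatives in the fit that keeps NmU replicate 4, so it can lie under 0.05 where the call ended only in the fit without that replicate.

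Other secreted signals rose by less. The inflammatory cytokine Tnf had 124.7, 125.9, 89.1 and 109.8 on the PBS arrays and 238.9, 291, 215.3 and 349 on the NmU arrays and rose by 1.27 ± 0.22 (adjusted p = 0.000532). The macrophage growth factor Csf1 had 154.1, 172.1, 186.6 and 198.3 on the PBS arrays and 229, 261.3, 296.6 and 259.2 on the NmU arrays and rose by 0.56 ± 0.11. Tgfb1, a suppressive cytokine, rose by 0.53 ± 0.14 (adjusted p = 0.0267). These groups did not overlap for any of the 3 genes. Among 8 chemokine receptors Ccr1, a receptor for Ccl3, was called higher, at 157.8, 168.5, 209.9 and 160.9 on the PBS arrays and 283.5, 375.7, 377 and 314.7 on the NmU arrays (log2 0.95 ± 0.16). Cxcr4, the receptor that holds cells in marrow, fell by 1.21 (SE 0.24), although NmU replicate 4 overlapped the PBS arrays at 75.2, and Ccr7, the lymph node homing receptor, fell by 0.62 (SE 0.17) on the log2 scale. The Th2 receptor Ccr8 was not called (-0.12 ± 0.20, adjusted p = 0.806). Of 17 interleukin receptor chains 0 were called in either direction in either fit (limma), with 1 lower at an unadjusted p under 0.05, and the median was -0.08. They included Il1r1 (0.18 ± 0.17), Il1r2 (-0.15 ± 0.11) and Il2ra (-0.03 ± 0.12). Dropping 1 array ended the call of Tgfb1 without PBS 1, 2, 3 or 4 or NmU 1 or 2 (adjusted p up to 0.103) and Ccr7 without PBS 1 or 4 or NmU 1, 2 or 3 (adjusted p up to 0.0796). With only the 8 arrays at 6 h in the fit, Cxcr4 (adjusted p = 0.0966) and Csf1 were not called in both fits.

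The receptor Nmur1 had 197, 192.7, 225.3 and 163.9 on the PBS arrays and 229.6, 261.6, 271.8 and 252.3 on the NmU arrays. Its 4 NmU arrays were above the PBS arrays, but the log2 difference of 0.39 ± 0.25 was not called (adjusted p = 0.427 by limma). An exact two-sided permutation test over the 8 arrays alone gave p = 0.0286, the smallest that 4 against 4 allows. That p follows from the lack of overlap, which 519 of 7532 probe sets had in this direction. At 0.8, 3 and 12 h the NmU mean of Nmur1 was below the PBS mean (192 against 201, 127 against 214 and 132 against 195). Of 29 measured genes of G protein signalling 3 rose and 0 fell, against 2.69% and 2.16% of all genes, with a median of 0.06. Rgs10, which speeds the shut-off of G protein alpha subunits, had 72.3, 69.2, 67.3 and 70.7 on the PBS arrays and 185.7, 192.7, 184.3 and 135.3 on the NmU arrays and rose by 1.31 ± 0.14 (adjusted p = 6.15e-07). Replicate 4 was below the other NmU arrays yet above all PBS arrays, and a further Rgs10 probe set rose by 1.18. Prkce, a calcium-independent protein kinase C, had 30.3, 31, 33.5 and 35.3 on the PBS arrays and 55.5, 49.3, 78.7 and 47.2 on the NmU arrays and rose by 0.80 ± 0.16. Gem was the third of these genes, and it passed the signal threshold only through the NmU group. Rgs3 was not called (0.32 ± 0.16).

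Enzymes at several steps of cholesterol synthesis were higher with NmU. Of 16 measured genes 9 rose in both fits and 0 fell, 14 had a positive log2 fold change, and the median was 0.49. The share that rose over all genes was 2.69%, with a median of 0.01. The first step measured was Hmgcs1, which condenses acetyl units to HMG-CoA, with 173.5, 172.7, 222.9 and 239.1 on the PBS arrays and 422.3, 362.5, 468 and 390 on the NmU arrays (log2 1.03 ± 0.16, adjusted p = 0.000117). Next along the pathway, the mevalonate kinase Mvk had 86.9, 83.3, 96.3 and 66 on the PBS arrays and 107.7, 114.4, 127.3 and 104 on the NmU arrays (log2 0.46 ± 0.11) and the isopentenyl diphosphate isomerase Idi1 had 177.1, 212, 189.2 and 162 on the PBS arrays and 452.8, 437.7, 396.7 and 285.3 on the NmU arrays (log2 1.07 ± 0.17). The groups were apart for each of these genes, and Mvk changed least. Fdft1, squalene synthase, had 203.9, 194, 175.4 and 147.5 on the PBS arrays and 250.8, 281.9, 262 and 235.9 on the NmU arrays (log2 0.52 ± 0.14). Lss, which closes the rings to lanosterol, had 196.2, 231.1, 186.9 and 224.6 on the PBS arrays and 334.1, 328.6, 321.8 and 239.4 on the NmU arrays (log2 0.54 ± 0.12), and replicate 4 stood below the other NmU arrays. Cyp51, the lanosterol demethylase, had 84.6, 69.7, 48.8 and 41.6 on the PBS arrays and 191.5, 131.3, 177.1 and 139.3 on the NmU arrays, the largest log2 fold change of the list at 1.42 ± 0.22 (adjusted p = 0.000168). Msmo1, which removes the next methyl groups, had 79, 90.6, 103.7 and 82.6 on the PBS arrays and 229.8, 190.3, 280.5 and 174 on the NmU arrays (log2 1.28 ± 0.17, adjusted p = 1.56e-05). Sc5d, a late desaturase, was dim at 20.2, 14, 33.8 and 30.9 on the PBS arrays and 44.8, 36.7, 73.7 and 43 on the NmU arrays (log2 1.04 ± 0.26, adjusted p = 0.0162), and its PBS arrays spread widely. Dropping 1 array ended the call of Mvk without PBS 4 or NmU 3 (adjusted p up to 0.110), Fdft1 without PBS 3 or 4 or NmU 1, 2 or 3 (adjusted p up to 0.112) and Sc5d without PBS 1 or 2 or NmU 3 (adjusted p up to 0.118).

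The other 7 of the 16 sterol genes were not called in both fits. Fdps, which makes farnesyl diphosphate, had 1306.7, 1401, 1345.8 and 1238.5 on the PBS arrays and 1763.6, 2158.6, 1634.8 and 1343.7 on the NmU arrays, a log2 difference of 0.36 ± 0.14 (adjusted p = 0.137), and was called only without replicate 4 (adjusted p = 0.0445). Its other probe set rose in both fits (log2 0.41). Mvd (0.44 ± 0.19), Nsdhl (0.37 ± 0.20), Dhcr7 (0.23 ± 0.19), Tm7sf2 (0.09 ± 0.14), Ggps1 (-0.06 ± 0.20) and Ebp (-0.07 ± 0.13) were not called. Of the 3 Nsdhl probe sets 1 rose, by 0.56, and it was not the brightest, which stands for the gene. None of 7 genes of sterol uptake and control was called in either direction in either fit (limma), 2 were lower at an unadjusted p under 0.05, and their median was -0.21. The factor Srebf1 differed by -0.07 ± 0.09 and the cholesterol exporter of lysosomes Npc1 by -0.21 ± 0.08. The regulator Insig1 was under the signal threshold in both groups. With 1 of the other 6 h arrays left out, 6 to 8 of the 16 rose, and with only the 8 arrays at 6 h in the fit 5 rose.

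**Figure D3:**
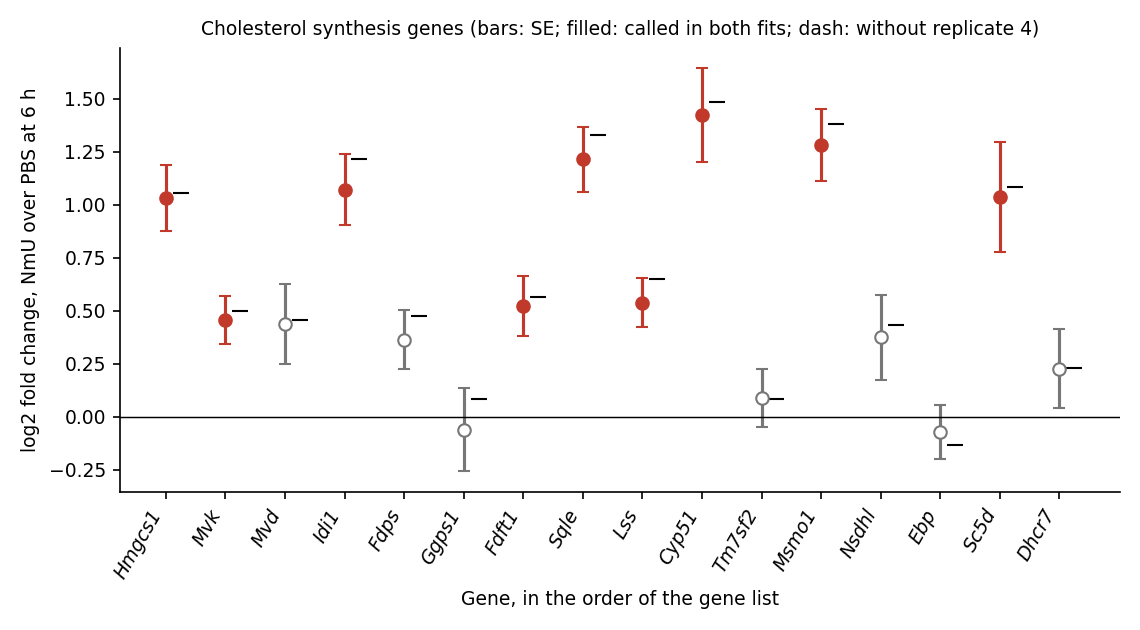
Points are log2 fold changes of NmU over PBS at 6 h for 16 measured genes of cholesterol synthesis, in the order of the list, with SE bars, and dashes are the values without NmU replicate 4. Filled red points (9) were called in both fits, from Mvk at 0.46 to Cyp51 at 1.42, and open points (7) were not.

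Promoter sequence of the sterol genes is shown since the called genes moved together. RefSeq (GRCm38.p6) gave a window for 13 of the 16 measured genes. The NF-Y box CCAAT, searched on both strands, was found in the 250 bases before the start in 13 of 13 genes, against 41.0% of 4587 compared genes and 37.5% of all genes with a window. All 13 also had a box within the last 80 bases, against 22.5% of compared genes, and the 80 bases were chosen after the positions were seen. The genes that were not called had it as often as those called, in 6 of 6 and 7 of 7. In the 80 bases before the start of the 7 called genes with a window, printed 5′ to 3′ on the coding strand, capitals mark the box.
Hmgcs1: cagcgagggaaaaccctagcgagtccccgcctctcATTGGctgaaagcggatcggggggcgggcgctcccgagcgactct
Mvk: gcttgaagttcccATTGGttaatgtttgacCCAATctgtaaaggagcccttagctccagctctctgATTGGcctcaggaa
Idi1: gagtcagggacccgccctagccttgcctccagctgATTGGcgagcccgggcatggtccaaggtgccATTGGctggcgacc
Lss: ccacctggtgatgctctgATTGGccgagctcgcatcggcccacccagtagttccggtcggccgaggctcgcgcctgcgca
Cyp51: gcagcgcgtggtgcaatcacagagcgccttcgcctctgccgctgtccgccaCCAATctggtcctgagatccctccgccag
Msmo1: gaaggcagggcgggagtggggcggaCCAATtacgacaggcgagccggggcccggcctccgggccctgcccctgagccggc
Sc5d: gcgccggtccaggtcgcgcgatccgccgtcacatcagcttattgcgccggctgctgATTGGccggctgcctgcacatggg
These windows lie at chr13:119690271-119690350 (+ strand) for Hmgcs1, chr5:114444189-114444268 (+ strand) for Mvk, chr13:8885526-8885605 (+ strand) for Idi1, chr10:76531525-76531604 (+ strand) for Lss, chr5:4104698-4104777 (- strand) for Cyp51, chr8:64733579-64733658 (- strand) for Msmo1 and chr9:42264301-42264380 (- strand) for Sc5d. The box began between 14 and 67 bases before the start, and Mvk had 3 of them. The sterol response element TCACNCCAC (GTGGNGTGA on the other strand) was in 1 of 13 genes, Hmgcs1, against 1.31% of compared genes. It began 137 bases before the start in the stretch of 140 bases below (chr13:119690211-119690350 (+ strand)), where capitals mark it.
Hmgcs1: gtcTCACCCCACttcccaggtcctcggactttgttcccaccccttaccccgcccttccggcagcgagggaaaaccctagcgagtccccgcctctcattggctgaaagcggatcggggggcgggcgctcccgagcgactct
A match is a description of the letters, and the other sterol promoters lack only this spelling in this window.

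The Il5 promoter is shown for comparison. The core bound by the calcium-dependent NFAT factors, GGAAA on either strand, was found in 5 of 5 called Th2 cytokine genes with a window, but also in 59.9% of all compared genes. In the 120 bases before the Il5 start (chr11:53720674-53720793 (+ strand)) it began at 113 and 47 bases before the start, in capitals here.
Il5: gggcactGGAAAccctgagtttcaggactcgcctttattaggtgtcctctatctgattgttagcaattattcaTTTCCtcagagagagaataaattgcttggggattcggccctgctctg
The AP-1 site TGANTCA, the same on both strands, was in 1 of the 5 genes (6.00% of compared genes) and the GATA core in 3 of 5 (18.1%), searched as GATAA on both strands.

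Lipid genes outside the sterol pathway had fewer calls, and the difference between the lists was not tested. Of 13 fatty acid synthesis genes 10 had a positive log2 fold change, the median was 0.21 and 1 rose, Acsl4, which activates arachidonate, from 134 ± 34.3 to 302 ± 61.7 (SD, n = 4 each), or by 1.18 ± 0.16 on the log2 scale (adjusted p = 1.54e-05). Fatty acid synthase Fasn (0.21 ± 0.16) and the citrate lyase Acly (0.18 ± 0.17) were not called. Of 18 genes of fatty acid uptake and oxidation 3 fell and 0 rose, against 2.16% and 2.69% of all genes, with a median of -0.26. The fatty acid chaperone Fabp5 had 1184.5, 1165.2, 1071.6 and 1145.4 on the PBS arrays and 602.1, 673.9, 663.3 and 772.4 on the NmU arrays and fell by 0.76 on the log2 scale (SE 0.13, adjusted p = 0.000371). Cpt1a, which loads long fatty acids for entry into mitochondria, had 527, 507.7, 530.9 and 485.7 on the PBS arrays and 346, 333.1, 335.4 and 437.9 on the NmU arrays and fell by 0.51 (SE 0.11), and its partner Cpt2 had 346.3, 309.7, 313.8 and 334.6 on the PBS arrays and 237.3, 209.6, 240.4 and 270.3 on the NmU arrays and fell by 0.45 (SE 0.11). For all 3 genes the groups did not overlap and replicate 4 was the NmU array nearest to PBS. At least 1.5-fold was reached by 1 of the 3. Gch1, the first enzyme of tetrahydrobiopterin synthesis, rose from 49.4 ± 3.54 to 122 ± 9.25 (SD, n = 4 each), or by 1.31 ± 0.09 on the log2 scale (adjusted p = 3.22e-10).

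Surface molecules and signalling proteins of activated T cells were raised in small numbers, where 2.69% of all genes rose in both fits. Of 15 activation and inhibitory receptors 4 rose and 0 fell (median 0.15). The hyaluronan receptor Cd44, a marker of effector cells, had 59.3, 64, 83.8 and 67.6 on the PBS arrays and 154.3, 181, 151.5 and 121.1 on the NmU arrays (log2 1.14 ± 0.24). Lilr4b, an inhibitory receptor, had 51.8, 38.3, 42.7 and 49.6 on the PBS arrays and 114.6, 97.3, 116.8 and 104.1 on the NmU arrays (log2 1.25 ± 0.14, adjusted p = 1.46e-06). Klrg1, a receptor of late effector cells, rose from 232 ± 24.5 to 441 ± 16.1 (SD, n = 4 each), or by 0.93 ± 0.20 on the log2 scale. Tnfrsf9, a costimulatory receptor, rose by 0.44 ± 0.13 (adjusted p = 0.0381). Of 25 genes of the T cell receptor complex and its kinases 3 rose, the adaptor Lcp2 by 0.94 ± 0.14, the phosphatase Ptpn6 by 0.66 ± 0.13 and the kinase Zap70 by 0.43 ± 0.10, while Cd3d (0.03 ± 0.13) and Cd3e (-0.33 ± 0.24) were not called. Without PBS 3 h replicate 4, which enters only the estimate of the spread, 5 of the 25 rose. Of 11 feedback regulators 2 rose, the ERK phosphatase Dusp6 by 0.70 ± 0.12 and the ERK inhibitor Spred2, which had 36.6, 30.8, 39.5 and 39.1 on the PBS arrays and 82.9, 65.7, 97.3 and 72.8 on the NmU arrays (log2 1.12 ± 0.14, adjusted p = 7.33e-06). Among adhesion genes the CD6 ligand Alcam rose from 99.0 ± 10.4 to 210.4 ± 27.1 (SD, n = 4 each), or by 1.08 ± 0.19 on the log2 scale and Cd82 by 0.78 ± 0.15, while the gut-homing integrin Itgb7 fell by 0.44 (SE 0.10) and Cd47 fell by 0.44 (SE 0.10). Slfn2 (1.09 ± 0.18) and Btg1 (0.92 ± 0.11), both tied to T cell quiescence, rose, and the stress-response proteins Nupr1 (0.97 ± 0.17) and Srxn1 (0.66 ± 0.16) rose too. Dropping 1 array ended the call of Tnfrsf9 without PBS 1, 3 or 4 or NmU 1, 2 or 3 (adjusted p up to 0.169), Zap70 without NmU 2 (adjusted p up to 0.132), Cd47 without NmU 3 (adjusted p up to 0.0964) and Srxn1 without PBS 2 or NmU 2 (adjusted p up to 0.0653).

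Immediate early genes, the first to be transcribed after a stimulus, included several that NmU 6 h replicate 4 held at high levels. Of 23 measured, 6 rose with 4 against 4 arrays and 3 in both fits (2.69% of all genes), Egr2, Fosl1 and Ier2. Egr2, a zinc finger factor, had 141.2, 145.6, 144.8 and 133.5 on the PBS arrays and 251.9, 277, 304.4 and 1705.4 on the NmU arrays, and its log2 fold change fell from 1.63 ± 0.34 to 0.97 without replicate 4 (adjusted p = 0.000208). Ier2, a nuclear protein, had 279.8, 300, 278.5 and 335.6 on the PBS arrays and 393.1, 376.7, 409.6 and 1051.3 on the NmU arrays, and its log2 fold change went from 0.76 ± 0.19 to 0.40. Fosl1, a subunit of AP-1, had 43.4, 21.4, 43.1 and 41.3 on the PBS arrays and 79.9, 76.9, 91.8 and 146.8 on the NmU arrays and rose by 1.41 ± 0.21, or 1.20 without that array. All NmU arrays of these 3 genes were above the PBS arrays. Egr1 and Fos had 1 high array each and were called in neither fit. Egr1 had 120.2, 163.6, 120 and 141.4 on the PBS arrays and 170.2, 147.6, 149.9 and 1586.7 on the NmU arrays, and its log2 difference was 1.04 ± 0.44 with replicate 4 (adjusted p = 0.193) and 0.20 without it. Fos had 24.1, 25.2, 25.1 and 20.2 on the PBS arrays and 33.6, 28.5, 31.1 and 336.7 on the NmU arrays, with all NmU arrays above the PBS arrays but 3 of them only slightly, and differences of 1.26 ± 0.45 and 0.40 (adjusted p = 0.105 and 0.242). The other 9 of the 12 genes whose difference moved most when this array was left out, Anxa2, Lhx1, Rgs11, Scx, Sh3bgr, Sln, Cort, Th and Txnrd3, were called in neither fit. With only the 8 arrays at 6 h in the fit 1 of the 23 rose, and Egr2 was not called (adjusted p = 0.154). The call of Ier2 was lost without either of 2 arrays, that is Ier2 without PBS 1 or NmU 3 (adjusted p up to 0.231).

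Replicate 4 took part in most of the changes all the same. Of the 235 probe sets called higher without it, it lay on the same side of the PBS mean in 224 and beyond every PBS array in 211, and its own change was 69.9% of that of the other NmU arrays at the median. Of the 197 called lower without it, it lay on the same side in 176 and beyond every PBS array in 146, with a median of 48.3%. It was nearer to PBS than each other NmU array in 149 of the 235 and in 150 of the 197. For Atp8a1, a lipid flippase, it had 25.6, against 6.6 to 10.3 on the other NmU arrays and 27.0 to 37.3 on the PBS arrays. For Gpld1, a phospholipase, it had 104.9 against 58.1 to 62.4 on the other NmU arrays and 98.8 to 130.6 on the PBS arrays. What set this sample apart was not tested. Gpld1 was no longer called if another array was dropped, that is Gpld1 without NmU 1 or 3 (adjusted p up to 0.0747).

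**Figure D4:**
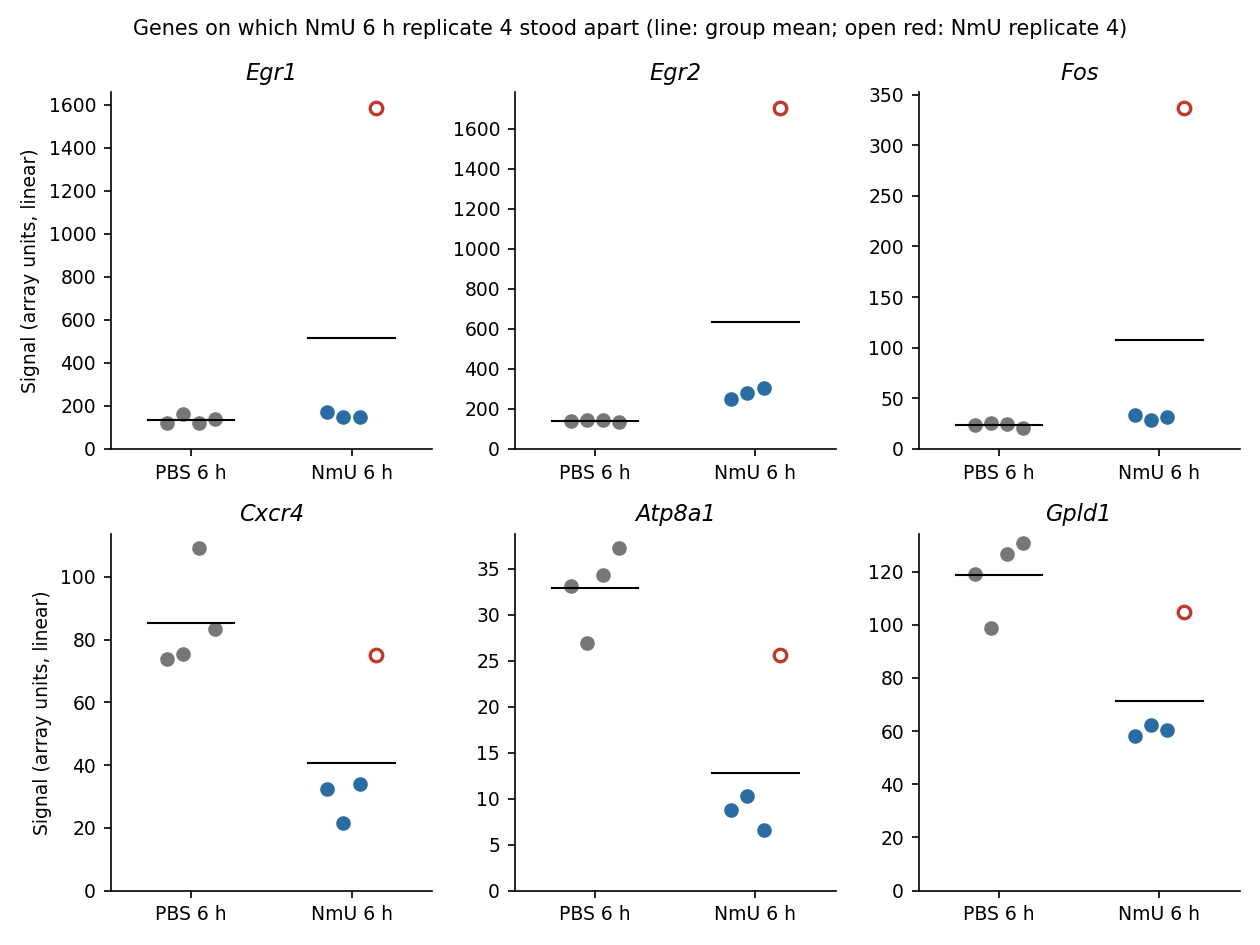
Points are signals (linear array units, each panel with its own scale from 0) on the 4 PBS and the 4 NmU arrays at 6 h, lines are group means, and the open red point is NmU replicate 4. It is the highest array for Egr1, Egr2 and Fos, and for Cxcr4, Atp8a1 and Gpld1 it lies near the PBS arrays while the other 3 NmU arrays are lower.

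Decreases were smaller and spread over many functions. Atp8a1 fell by 1.56 on the log2 scale (SE 0.34, adjusted p = 0.00601), or -1.96 without replicate 4. Of its NmU arrays 3 were near the floor, so the size is uncertain, being -0.61 with the floor at the 40th percentile, and the call was lost with only the 8 arrays at 6 h in the fit (adjusted p = 0.0600). The histidine ammonia lyase Hal, with 1 NmU array at the floor, fell by 1.40 (SE 0.25). Srpk2, a kinase of splicing factors, fell by 1.13 (SE 0.22) and Ndst2, a heparan sulphate enzyme, fell by 1.03 (SE 0.26), both dim. With the floor at the 40th percentile the values of Hal and Srpk2 were -0.34 and -0.30, and neither was called in both fits then or with only the 8 arrays at 6 h. Atp8a1, Hal and Srpk2 passed the signal threshold only through the PBS group, where they were high, so their calls are a description and support nothing. Brighter genes fell too. Myb, a factor of lymphoid progenitors, had 713.3, 717.6, 763.1 and 756.7 on the PBS arrays and 435.1, 351.1, 402.6 and 576.3 on the NmU arrays and fell by 0.77 (SE 0.12, adjusted p = 0.000243). Dennd5a, a Rab regulator, had 1187.5, 1093.8, 1102.1 and 1127.1 on the PBS arrays and 597.1, 631.5, 613.4 and 834.1 on the NmU arrays and fell by 0.77 (SE 0.10, adjusted p = 9.05e-06). H2az2, a histone variant, fell by 0.73 (SE 0.11), the ATP-gated channel P2rx4 fell by 0.75 (SE 0.15) and the nuclear envelope protein Sun2 fell by 0.75 (SE 0.15). Beside Ddit4, the factor Foxo3 fell by 0.39 (SE 0.11), and the immunoproteasome subunits Psmb9 and Psmb8 fell by 0.43 and fell by 0.34 (SE 0.10 and 0.08). Of 23 helper lineage factors Myb alone was called, and Gata3, the master factor of Th2 cells, differed by 0.12 ± 0.10. Calls that ended with 1 array dropped were those of Hal without NmU 1 (adjusted p up to 0.0619), Srpk2 without NmU 1 (adjusted p up to 0.168), Ndst2 without PBS 1 or 4 or NmU 1 or 3 (adjusted p up to 0.0781), Foxo3 without PBS 1, 2 or 4 or NmU 2 or 3 (adjusted p up to 0.137), Psmb9 without NmU 1 or 3 (adjusted p up to 0.0379) and Psmb8 without PBS 1, 2, 3 or 4, NmU 1 or 3 or any of 16 arrays of other times (adjusted p up to 0.130).

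Several genes of mitosis were lower. Among the 30 mitotic and G2/M genes measured, 7 were called lower and none higher, 28 had a negative log2 fold change and the median was -0.32. Of all genes compared 2.16% were called lower in both fits, and their median was 0.01. The cyclin Ccnb2 had 742.5, 686.1, 727.6 and 632 on the PBS arrays and 478.7, 465, 506.4 and 613.7 on the NmU arrays and fell by 0.44 (SE 0.09, adjusted p = 0.00415). Top2a, which untangles chromosomes, had 335.4, 328.5, 360.6 and 359.7 on the PBS arrays and 246.1, 219.8, 244.1 and 303.9 on the NmU arrays and fell by 0.46 (SE 0.12). Stmn1 (a microtubule destabiliser), Kif11 (a spindle motor), Aurkb (a mitotic kinase) and Mad2l1 (a checkpoint protein) fell by between 0.41 and 0.50, and Cks2, a partner of cyclin-dependent kinases named here after its value was seen, was the other member that fell (log2 -0.31). Each change was below 1.5-fold, and the count rested on single arrays, being 2 if replicate 3 of either 6 h group was dropped, 3 without NmU 6 h replicate 1 or 2, 4 without PBS 6 h replicate 4 and 0 with only the 8 arrays at 6 h in the fit. In the list for DNA replication and the G1/S step (31 measured), 1 gene fell and 1 rose in both fits, against 2.16% and 2.69% of all genes. Of the 31, 6 had a positive log2 fold change, and the median was -0.15. At an unadjusted p under 0.05 with 4 against 4 arrays (limma), 13 were lower and 1 was higher. Pola1, a DNA polymerase subunit, fell by 0.59 (SE 0.12). The G1 cyclin Ccnd2 rose from 469 ± 29.4 to 759 ± 91.3 (SD, n = 4 each), or by 0.69 ± 0.15 on the log2 scale. Among the genes with values here, calls ended for Top2a without PBS 3 or 4 or NmU 1, 2 or 3 (adjusted p up to 0.0737), Kif11 without PBS 3 or 4 or NmU 1 or 3 (adjusted p up to 0.0918), Aurkb without PBS 1, 2 or 3 or NmU 2 or 3 (adjusted p up to 0.104), Mad2l1 without PBS 2, 3 or 4 or NmU 1, 2 or 3 (adjusted p up to 0.0790) and Ccnd2 without NmU 2 (adjusted p up to 0.0289).

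Many lists had few calls. No member was called in both fits among 18 heat shock genes, 40 of mitochondrial respiration, 14 of calcineurin and NFAT, 13 of NF-kB and 13 of CDK inhibition and p53 (limma). At an unadjusted p under 0.05 with 4 against 4 arrays, 0 heat shock genes were higher and 2 lower, and for mitochondrial respiration 1 was higher and 7 lower. The counts were 2 and 3 for NFAT, 3 and 2 for NF-kB, and 1 and 1 for CDK inhibition. The calcium-dependent factor Nfatc1 was called without replicate 4 (0.65, adjusted p = 0.0326) but not with it.

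In the next lists 1 to 3 genes were called in a direction, where both fits called 2.69% of all genes higher and 2.16% lower. A single call in a list of 17 to 30 genes is near those shares and is no result about that list. Other lists had larger shares, but these rest on few genes and were not tested. Of 14 TNF receptors and adaptors 3 rose, Tnfrsf9 and the adaptors Traf1 (0.87 ± 0.24) and Traf5 (0.45 ± 0.09). Of 6 TNF family ligands Tnf alone rose, and of 5 other cytokines Csf1 and Tgfb1 rose. Of 26 apoptosis genes 2 rose, Bid (0.39 ± 0.11), which carries death receptor signals to mitochondria, and Phlda1 (0.81 ± 0.17). Of 20 genes of the amino acid response Nupr1 and the glutamine carrier Slc1a5 (0.63 ± 0.10) rose. Of 19 genes of the unfolded protein response, the sensor Atf6 rose (0.55 ± 0.14) and the chaperone Pdia4 fell by 0.67 (SE 0.16), and Atf6 was also the 1 of 9 CREB family genes that rose. Of 30 proteasome genes the subunit Psmd8 rose (0.41 ± 0.11). The glucose carrier Slc2a3 (0.53 ± 0.16) rose among 20 glycolysis genes, where the enolase Eno3 fell by 0.25 (SE 0.07), and Slc2a3 and Slc1a5 were the 2 of 24 solute carriers that rose. Gch1 was the 1 of 24 genes of phospholipid, prenyl and cofactor metabolism that rose, and Ddit4 the 1 of 17 hypoxia genes that fell. Ddit4 and Cxcr4 were the 2 of 12 glucocorticoid response genes that fell, Psmb8 and Psmb9 the 2 of 28 interferon genes, and Ddit4 and Foxo3 the 2 of 18 genes of mTOR, FOXO and quiescence, where Slfn2 and Btg1 rose. Of 24 genes of ribosome biogenesis Rrs1 rose (0.41 ± 0.07), and Myc was called with 4 against 4 arrays (0.53 ± 0.16, adjusted p = 0.0484) but not without replicate 4 (adjusted p = 0.140). Most of these smaller changes rested on single arrays, and calls ended for Traf1 without PBS 1, 3 or 4 or NmU 1, 2 or 3 (adjusted p up to 0.0980), Bid without PBS 1, 2 or 4 or NmU 1, 2 or 3 (adjusted p up to 0.182), Phlda1 without NmU 3 (adjusted p up to 0.0225), Atf6 without PBS 1 or 2 or NmU 1, 2 or 3 (adjusted p up to 0.104), Pdia4 without PBS 2 or NmU 2 (adjusted p up to 0.0510), Psmd8 without PBS 1 or 2 or NmU 1, 2 or 3 (adjusted p up to 0.225), Slc2a3 without PBS 1, 2, 3 or 4, NmU 1, 2 or 3 or any of 9 arrays of other times (adjusted p up to 0.162) and Eno3 without PBS 1, 3 or 4 or NmU 1 or 3 (adjusted p up to 0.196).

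The effects at 6 h were set against those at the other times, each time with PBS arrays of its own. The 6 h effect differed from the 0.8 h effect for 72 probe sets in both fits, 39 upward (0.518%) and 33 downward (0.438%). It differed from the 3 h effect for 23 upward (0.305%) and 16 downward (0.212%), and from the 12 h effect for 3 upward (0.0398%) and 3 downward (0.0398%). Against 0.8 h, Il5 gained 2.41 ± 0.34 (SE, adjusted p = 0.000194), from 0.10 ± 0.24 at that time, and Gem 1.94 ± 0.46. Of the 16 sterol genes 6 had a higher effect than at 0.8 h in both fits, Msmo1 (1.35 ± 0.24), Cyp51 (1.29 ± 0.31), Idi1 (1.09 ± 0.23), Sqle (0.94 ± 0.22), Hmgcs1 (0.93 ± 0.22) and Mvk (0.68 ± 0.16), and against 3 h only Mvk did (0.69 ± 0.17). At their own times 0 sterol genes were higher at 0.8 h, 3 at 3 h and 1 at 12 h. Rgs10 was higher than at 0.8 h (1.47 ± 0.20) and at 3 h (1.00 ± 0.20), and Spred2, Cd44, Nupr1 and Cxcl2 exceeded their 0.8 h effects.

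Other effects were lower at 6 h than earlier. Compared with 0.8 h, the effect was lower for Egr1 (-3.53 ± 0.63), Egr2 (-2.91 ± 0.49), Fos (-2.89 ± 0.63), the ADP-ribosyltransferase Tiparp (-2.37 ± 0.40) and the costimulatory ligand Tnfsf9 (-2.30 ± 0.49), and for Cxcr4 (-1.81 ± 0.34). Compared with 3 h, it was lower for Ccl7 (-2.49 ± 0.51), the CD30 ligand Tnfsf8 (-1.61 ± 0.29), the cAMP-responsive factor Crem (-1.21 ± 0.16) and Il4 (-0.81 ± 0.16). It was higher than at 3 h for Myb (0.99 ± 0.18), Adgrg1, an adhesion receptor (1.36 ± 0.25), and Rasa3, a GTPase regulator (1.28 ± 0.19), whose 3 h effects were -1.76 ± 0.13, -1.64 ± 0.18 and -1.14 ± 0.14. The 6 probe sets that differed from 12 h included Gch1 (0.80 ± 0.13) and Ryr3 (1.18 ± 0.22) with a higher 6 h effect, and Ddit4 (-1.03 ± 0.18), Pcbd2 (-0.56 ± 0.11) and Pth (-1.04 ± 0.17) with a lower one, and the sixth probe set has no gene name here. These counts rested on single arrays. Without PBS 3 h replicate 4 they were 112, 59 and 11 for 0.8, 3 and 12 h. At 0.8 h the count was 47 if PBS 0.8 h replicate 2 was dropped and also if NmU 0.8 h replicate 1 was, 44 without NmU 0.8 h replicate 4 or NmU 6 h replicate 1, and 36 without NmU 6 h replicate 3. The 3 h count was 22, 20 and 21 without NmU 3 h replicate 3, NmU 6 h replicate 1 and NmU 6 h replicate 3, and the 12 h count was 2 without NmU 6 h replicate 2. Of the 199 probe sets higher at 6 h in both fits, 107 were also called higher at 3 h, 45 at 12 h and 18 at 0.8 h, and 71 at no other time. Of the 140 lower, 72 were called lower at 3 h, 19 at 12 h and 1 at 0.8 h, and 59 at no other time. Pth lost its 6 h call in the same way, that is Pth without NmU 3 (adjusted p up to 0.0470).

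**Figure D5:**
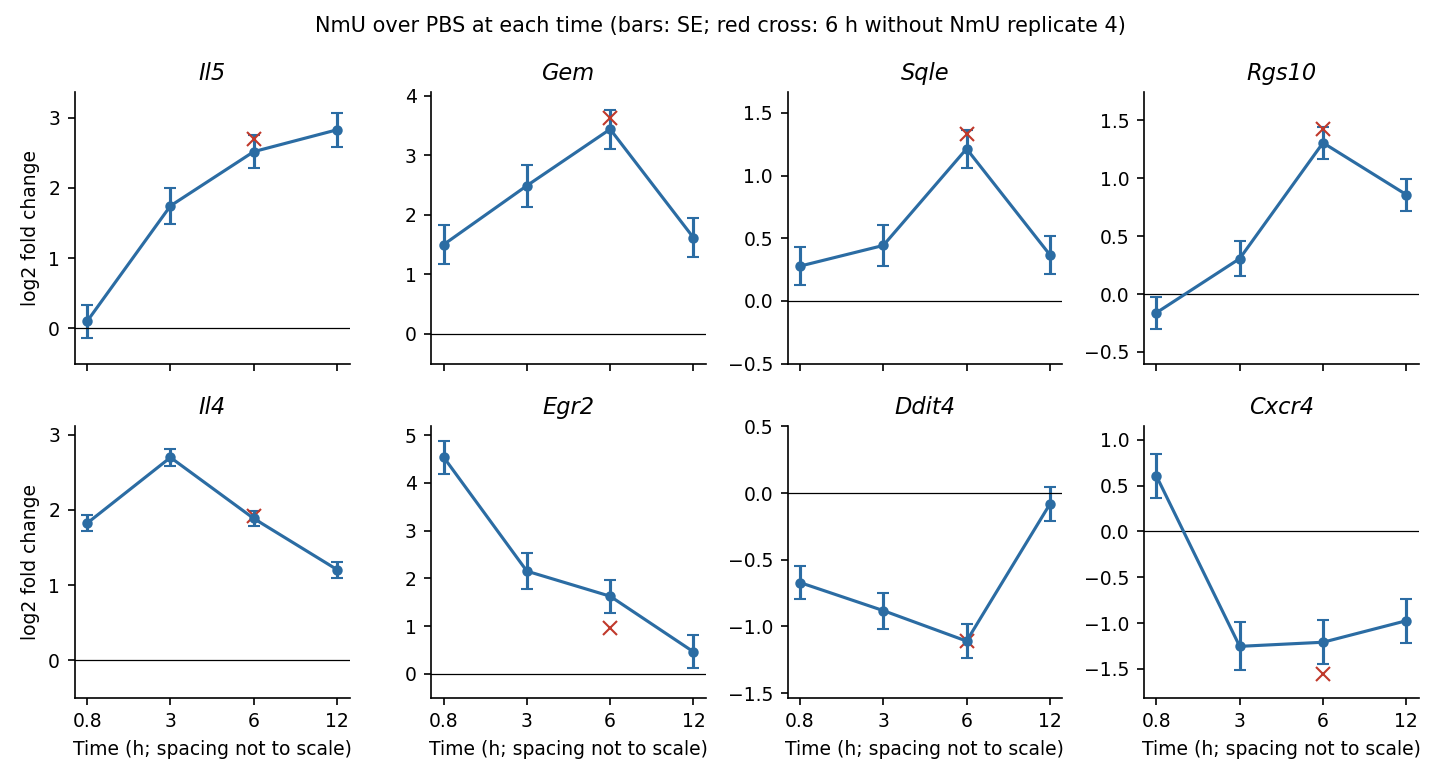
Points are log2 fold changes of NmU over PBS at 0.8, 3, 6 and 12 h with SE bars, for 8 genes, and the red cross is the 6 h value without NmU replicate 4. Gem, Sqle and Rgs10 are highest at 6 h, Il5 goes on to 2.83 at 12 h, Il4 is highest at 3 h, Egr2 declines from 0.8 h, and Ddit4 is lowest at 6 h, though only the differences given in the text were tested.

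The cells were checked against their label. Transcripts of Cd3d, Cd3g, Cd4, Cd28 and Gata3 had group means between 289 and 2310.2 in the 6 h groups, while Thy1 and Cd5 were under the signal threshold and Cd2 was near it. Summed signals of marker lists of other cells overlapped between the groups for CD8 T and NK cells, mast cells, macrophages and dendritic cells, neutrophils, fibroblasts, erythroid cells and B cells. The 5 erythroid markers had the highest sums, at 5638.1 to 6412.6 on the PBS arrays and 4579.4 to 6169.2 on the NmU arrays. Of these markers 3 were compared and 0 were called in either fit (limma). Of 26 such markers compared, Cd68 of macrophages (31.2, 30.5, 39.6 and 36.7 on the PBS arrays and 52.4, 48.2, 52.3 and 47.1 on the NmU arrays, log2 0.54 ± 0.15) and Mpo of neutrophils (16.9, 19.9, 22.5 and 14.7 on the PBS arrays and 27.6, 40, 34.6 and 31.5 on the NmU arrays, log2 0.86 ± 0.18) were called, both higher. The 17 macrophage and dendritic cell markers summed to 2089.9 to 2215.6 on the PBS arrays and 2127.5 to 2195.2 on the NmU arrays. Of these 17, 8 passed the signal threshold and 4 were at the floor on all 8 arrays. Lyz2, Itgam, Adgre1 and Fcer1g had means under the floor of 5.8 in both groups, but they are picked members and do not speak for the list. The 8 B cell markers summed to 204.4 to 228.8 with PBS and 227.5 to 265.5 with NmU, a narrow overlap, and 5 of the 6 compared had a positive log2 fold change, with 0 called in either fit (limma) and 1 higher at an unadjusted p under 0.05. The 9 neutrophil markers summed to 225.5 to 281.7 with PBS and 272.9 to 321.3 with NmU. Among them Mpo passed the signal threshold only through the NmU group, where it was high, so its call is a description and supports nothing. The part of other cells in the results was not tested. In bulk samples fewer cells of a type and less RNA per cell cannot be told apart.
 Single arrays ended the call of Cd68 without PBS 1, 2 or 4, NmU 1, 2 or 3 or any of 2 arrays of other times (adjusted p up to 0.118) and Mpo without NmU 2 (adjusted p up to 0.0316).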

How the data were processed

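Total RNA of D10.G4.1 cells was measured on 31 Affymetrix-type arrays in 8 groups. The authors deposited 1 linear intensity per probe set and array, and the software behind it is not given in the sources used here. All arrays had a trimmed mean near 150.1 (2% trimmed at each end), so the deposited intensities were already scaled. Depth has no counterpart on arrays, and their number limits the precision. Of 12422 probe sets other than array controls, 10833 had 1 gene symbol, 396 several and 1193 none, and 10817 were matched to RefSeq (GRCm38.p6). Intensities were raised to a floor of 5.8 (the 20th percentile of all values) and taken to log2. Probe sets with a group mean over 20.2 (the 40th percentile) in either 6 h group were tested. limma 3.58.1 (R 4.3.3) was fitted to all 31 arrays with 8 group means, giving 23 residual degrees of freedom, and again without NmU 6 h replicate 4, with Benjamini-Hochberg adjustment over 7532 probe sets. Differences between times were contrasts of the same fits. Fold changes on floored values understate those of dim genes.

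Where several probe sets read a gene, the one brightest on average stands for it. Named genes were the 20 largest rises and 20 largest falls called in both fits, all measured members of the Th2 cytokine, chemokine and sterol synthesis lists, up to 6 called members and up to 2 defining uncalled members of each other list, the 12 genes that moved most without replicate 4, up to 10 in each direction for each difference between times, Nmur1, and Il5, Gem, Sqle and Ddit4. The members and lists were chosen with earlier results of these data known. Groups and replicate numbers come from the sample labels, and no 2 arrays held identical values. Alternatives left out each array, changed the floor, filter and scaling, fitted the 8 arrays at 6 h alone, blocked on replicate number, or required 1.5-fold. Promoter sequences are from RefSeq.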

Additional observations from a re-analysis of the deposited data

Results flagged for a closer look

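Among 440 groups of 4 arrays examined for the named genes, 25 held 1 array whose gap to the others was above Dixon's 95% critical value, and chance gives about 1 in 20. Of these 25, 12 were on NmU 6 h replicate 4, a number partly fixed by the choice of genes, since 12 of the named genes were picked for moving most without that array. It was the highest array for Egr1 (1586.7), Egr2 (1705.4), Fos (336.7), Ier2 (1051.3), Cpt1a (437.9), Dennd5a (834.1), Gpld1 (104.9) and Rgs11 (55.0), and the lowest for Anxa2 (13.1), Lss (239.4), Rgs10 (135.3) and Slc2a1 (132.3). Elsewhere in the NmU group, replicate 1 was high for Ccna2 (285.2) and low for Tpsb2 (23.7), and replicate 2 was high for Ccnd2 (895.8).

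In the PBS group, replicate 1 was high for Il5 (63.5) and low for Nfatc2 (98.3), Tacc3 (83.9) and Xcl1 (6.7). PBS replicate 2 was high for Pcyt1a (89.9) and Tsc2 (206.6) and low for Fosl1 (21.4). PBS replicate 3 was low for Dusp6 (1294.8) and Il10 (1429.9), and replicate 4 was low for Lcp2 (267.2). Il5, Il10, Dusp6, Lcp2 and Fosl1 were called higher in both fits all the same.

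The NmU effect at 6 h differed from that at 0.8 h for 72 probe sets, from that at 3 h for 39 and from that at 12 h for 6, by the contrast of effects in both fits.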

How the results depend on the processing

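No named gene called in both fits changed direction under any alternative run. The uncalled Ggps1 did, at -0.06 with 4 against 4 arrays and 0.08 without NmU 6 h replicate 4. Which of the 2 counts in both fits was larger also turned, since a common median gave 107 higher and 136 lower. Of 102 named genes called in both fits, 48 kept the call under all 39 alternatives and 60 in all 30 fits with 1 array left out. With 1 array left out, 149 to 292 probe sets were higher and 92 to 224 lower with 4 against 4 arrays, and 112 to 254 were higher and 73 to 191 lower in both fits. Differences between times numbered 36 to 112 for 0.8 h, 20 to 59 for 3 h and 2 to 11 for 12 h. With only the 8 arrays at 6 h, 148 were higher and 68 lower with 4 against 4 arrays, and 113 higher and 57 lower in both fits. With that scaling 114 were higher with 4 against 4 arrays, and the 3 h and 12 h differences were 22 and 2. Requiring 1.5-fold left 138 higher and 55 lower, or 115 and 51 in both fits. Quantile normalisation gave 183 higher and 162 lower in both fits. The cause was not tested, beyond the smaller number of arrays. Replicate numbers gave no clear pairing of the arrays. Same-numbered deviations correlated at -0.02, 0.11, 0.21 and -0.02 for numbers 1 to 4. The highest correlation with another number was 0.135, 0.098, -0.024 and 0.147, so numbers 2 and 3 lay above it and numbers 1 and 4 did not. A replicate block gave 194 higher and 127 lower in both fits. Probe sets near the floor have only bounded levels.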
